A study of Mus musculus with 10 samples.

Results

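Microglia of Trem2-/- mice were compared with those of wild-type (WT) mice after both had been taken off cuprizone and returned to normal food. The comparison used 4 of the 10 microarray libraries of the study: 2 from Trem2-/- and 2 from WT animals, chosen by their titles, with 1 library of each genotype after 4 weeks of cuprizone and 1 after 12 weeks, each followed by 2 weeks of recovery. All mice were C57BL/6 males aged 8 to 12 weeks by the labels, which do not say when that age was taken. It cannot be the age at harvest after 12 weeks of cuprizone and 2 of recovery, so age at harvest may differ between durations. The toxin was given as 0.2% of the diet, and microglia were sorted by flow cytometry into lysis buffer. The remaining 6 libraries served as reference: for each genotype, 1 control without cuprizone and 2 taken on the diet itself, at 4 and at 12 weeks. The labels give the genotype only as Trem2-/-, and the deleted part of the gene, the sort markers and the number of animals behind a library are not stated there. Nothing states that libraries of a group came from separate cohorts, so the p-values measure the spread between these libraries, which may be partly technical.

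Cuprizone binds copper and is toxic to oligodendrocytes, the cells that make myelin, and the myelin they leave behind has to be cleared before axons can be wrapped again. When the toxin is withdrawn, precursor cells make new oligodendrocytes and remyelinate the tissue. Microglia, the resident macrophages of the brain, take up the debris. TREM2 is a receptor on their surface that binds lipids and lipoproteins and signals through the adaptor TYROBP. It is known to be needed for the disease-associated state, in which microglia switch on genes of lipid handling, lysosomes and phagocytosis and lower their homeostatic genes.

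Values are log2 of the deposited array intensities, and differences are Trem2-/- minus WT on that scale, so that -1 is a 2-fold drop in signal. In tests, ± is the standard error from limma, fitted across 10792 genes with 2 libraries per group. Adjusted p-values are Benjamini-Hochberg values over all of these genes. Every ± is from the fit without feeding time as a block, also where a p-value with that block is beside it. Probes near the table's median level of 5.27 are close to background, and their differences can be compressed. The number of arrays, 2 against 2, limits the precision of every value below.

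The 4 recovery libraries were alike in overall signal but were set apart by duration. Across all 24567 probes the genotypes correlated at 0.991 in the 4-week pair and 0.985 in the 12-week pair, against 0.977 to 0.979 across durations. Feeding time is the one labelled difference between libraries of a group, so the spread within a group includes it and any difference in age at harvest. The microglia label was matched by its markers: all 31 homeostatic genes measured lay above the table median, the dimmest library value being 6.87. Most oligodendrocyte (11 of 16), neuron (15 of 19) and oligodendrocyte precursor markers (13 of 14) were below it in all 4 libraries. Of other myeloid markers fewer were: 7 of 21 monocyte, 3 of 21 neutrophil and 2 of 22 border macrophage genes. Astrocyte markers were below it in 9 of 16. The table median is the middle of all probe values, so many genes of any kind lie below it. By summed intensity oligodendrocyte markers exceeded monocyte markers in every recovery library. Their sums were 3045 and 2532 in WT and 2724 and 2125 in Trem2-/- libraries, against 1809 and 1299, and 1188 and 1107, for monocyte markers. The counts thus do not rank these cells by their signal. Neutrophil markers were higher in both 4-week libraries than in the 12-week ones, and highest in 1 of them. Their summed intensity over 21 genes was 16049 in the 4-week WT and 6031 in the 4-week Trem2-/- library, against 1142 and 1018 in the 12-week pair, so the 4-week WT library held the most neutrophil signal. Results are therefore shown for each duration pair, and without that library where it matters.

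Trem2 itself separated the genotypes. Its level was 10.67 and 10.66 in the WT recovery libraries and 7.85 and 7.26 in the Trem2-/- ones, in the order 4 and 12 weeks, so the groups lay far apart. It fell by 3.12 ± 0.23 (limma, adjusted p = 0.008) and was also lower by -3.13 on cuprizone and -3.19 in the controls. Its residual signal in Trem2-/- cells was above the table median, and whether the probes lie in the deleted part is not known.

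Beside Trem2, 2 more genes passed the threshold of 0.05 in recovery, both lower, which makes 3 of 10792 (0.0278%) with 3 lower and 0 higher, and 207 (1.92%) at an unadjusted p under 0.05, 117 lower (1.08%) and 90 higher (0.834%). G530011O06Rik, an unnamed gene that RefSeq lists on both the X and the Y chromosome, measured 11.59 and 11.76 in WT and 5.87 and 4.81 in Trem2-/- libraries, so that only the WT cells were clearly above the table median. It fell by 6.33 ± 0.52 (adjusted p = 0.0084). It was the one gene that also passed on the 4 recovery arrays alone. Mid1, an X-linked ubiquitin ligase bound to microtubules, read 8.04 and 8.91 in WT against 5.10 and 4.98, and fell by 3.43 ± 0.34 (adjusted p = 0.022). The groups did not overlap for either gene. In the RefSeq table of assembly GRCm38.p6 these 2 genes are close neighbours on the X chromosome, with 2 genes and 0 coding genes between them.

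When titled feeding time was entered as a block, so that each Trem2-/- library was set against the WT library of the same duration, 10 genes passed (0.0927%), 9 of them lower (0.0834%): the 3 above and 7 more. These were the disease-associated genes Gpnmb, Lpl and Olr1, the cyclooxygenase Ptgs2, the melanocyte differentiation gene Lrmda, the olfactory receptor Olfr111 and, as the only higher gene, Rasgrf2, an exchange factor for Ras. The call on Trem2 needed both WT libraries and the 12-week Trem2-/- library: without the 4-week WT library no gene passed and its adjusted p was 0.052, and it was 0.098 without the 12-week WT and 0.055 without the 12-week Trem2-/- library. On the 4 recovery arrays alone, the adjusted p of Trem2 was 0.078. Mid1 lost its call without any 1 of the recovery or Trem2-/- cuprizone libraries, with adjusted p from 0.051 to 0.178.

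Several of these genes differed by genotype whether or not the mice had seen cuprizone. Among the 34 genes that were lower by at least 1 without overlap of the groups (0.315% of all), 4 were lower by at least 1 in the control pair too: Trem2, G530011O06Rik (-3.07), Mid1 (-2.25) and Olfr111 (-2.81). Of the 11 higher genes of that kind (0.102%), Rasgrf2 was the 1 that was higher by at least 1 in the controls, at 2.98. Its level was 4.99 and 4.39 in the WT and 8.07 and 7.36 in the Trem2-/- recovery libraries, so the gene went from below to well above the table median, with a difference of 3.03 ± 0.36 (adjusted p = 0.064, and 0.00015 with the duration block). Olfr111 lies on chromosome 17, as Trem2 does, with 241 genes between them, and read 7.0 and 7.41 in WT against 5.16 and 4.22 (-2.52 ± 0.32, adjusted p = 0.069, and 0.0097 with the block). Apobec2, a cytidine deaminase homologue 3 genes from Trem2, had 5.32 and 4.61 in WT and 6.22 and 6.25 in Trem2-/- libraries (1.28 ± 0.28, adjusted p = 0.97) and 0.87 in the control pair. The glyoxalase Glo1, also on chromosome 17 but 658 genes away, measured 1.15 ± 0.34 and did not pass. In the control pair it differed by only 0.42. Lrmda was set lower in recovery by -2.43 ± 0.30 (adjusted p = 0.069, and 0.0075 with the block), with 7.63 and 7.79 in WT against 5.05 and 5.52, and by -0.97 in the control pair.

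**Figure D1:**
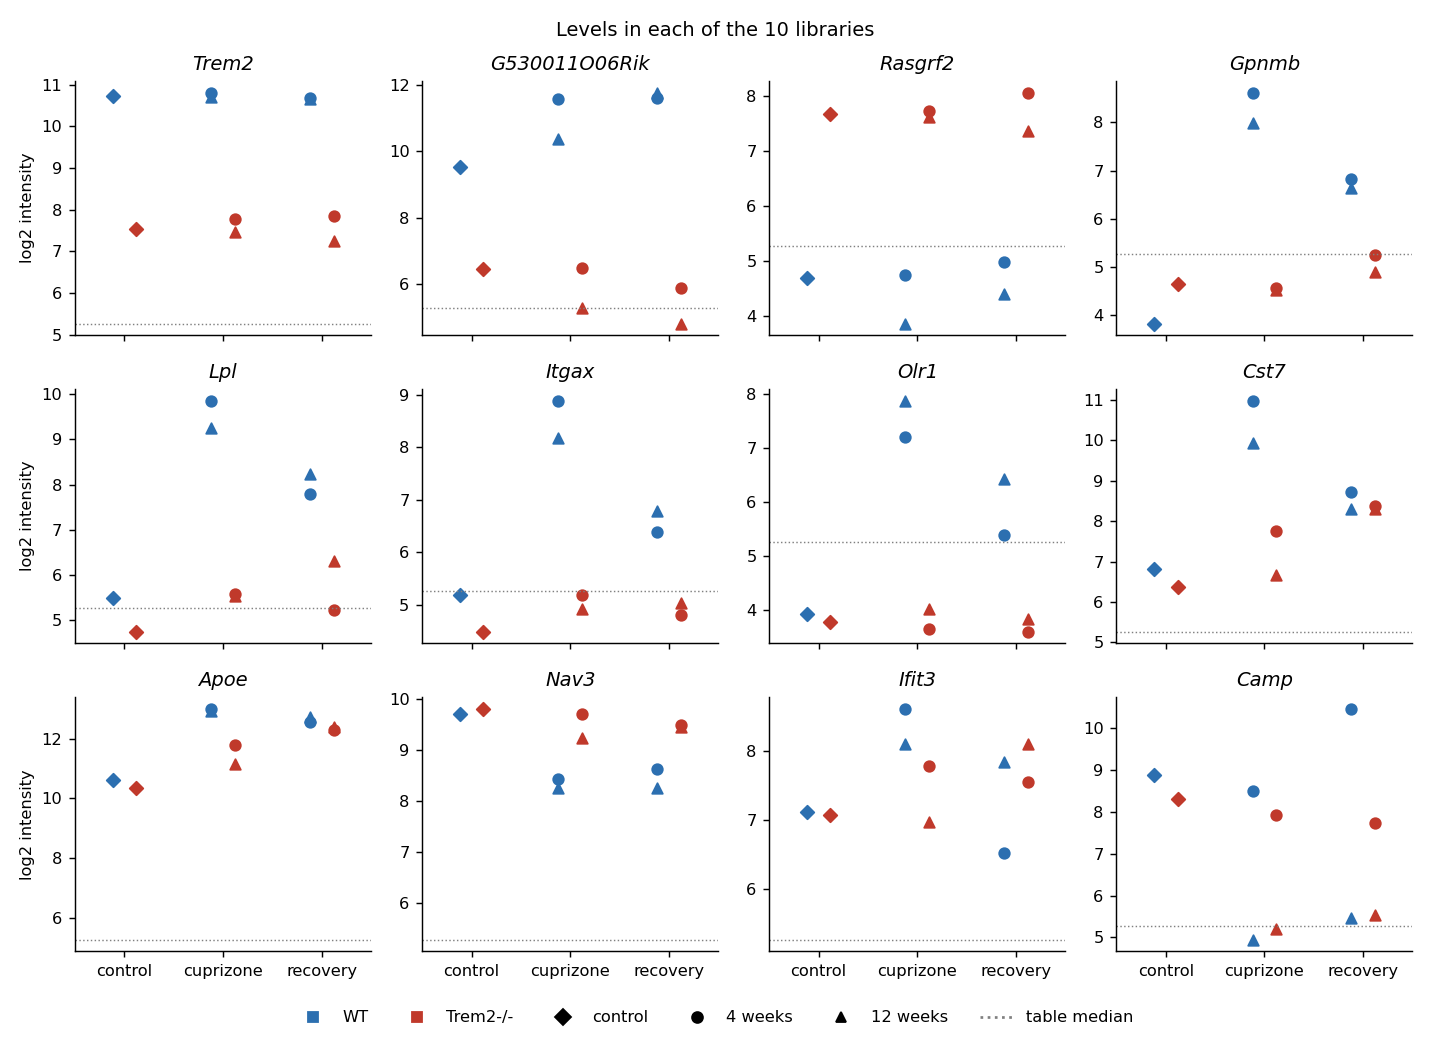
Log2 intensity (vertical axes, separate scale per gene) of 12 genes in each of the 10 libraries, by diet (horizontal axis), with WT in blue, Trem2-/- in red, circles for 4 weeks, triangles for 12 weeks, diamonds for controls and the table median of 5.27 dotted. Trem2, G530011O06Rik and Rasgrf2 differ by genotype under every diet, Gpnmb, Lpl, Itgax and Olr1 differ on cuprizone and less in recovery, and Cst7 reads 8.30 to 8.71 in all 4 recovery libraries.

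Taken pair by pair, the genotype differences were smaller in number at 4 than at 12 weeks. After 4 weeks of cuprizone, 48 genes were lower in the Trem2-/- library by 1 or more (0.445%) and 15 higher (0.139%). After 12 weeks it was 116 (1.07%) and 61 (0.565%). Each pair is 1 library against 1, so these counts carry no test. Lower by at least 1 in both pairs were 18 genes (0.167%), and 5 were higher in both (0.0463%). Over all 10792 genes the differences of the pairs correlated at 0.207, a description over genes that share arrays and are not independent. The 6 genes with the largest gap between the pairs, among those above the table median in every recovery library, mostly had 1 library apart from the rest. Camp, the antimicrobial cathelicidin of neutrophil granules, read 10.47 in the 4-week WT library against 7.74, 5.46 and 5.53. The RNA-processing factor Nudt21 read 5.43 in the 12-week Trem2-/- library against 7.55 to 7.64 elsewhere, the unnamed I730030J21Rik 8.16 in the 12-week WT library against 5.72 to 6.01, and the small nucleolar RNA Snord82 6.97 in the 12-week Trem2-/- library against 7.94 to 8.74. In the remaining genes no single library stood apart: the mitochondrial ribosome gene Mrps10 and the co-stimulatory ligand Tnfsf9 differed by 0.94 and 0.48 in the 4-week pair and by -1.05 and -1.42 in the 12-week pair.

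**Figure D2:**
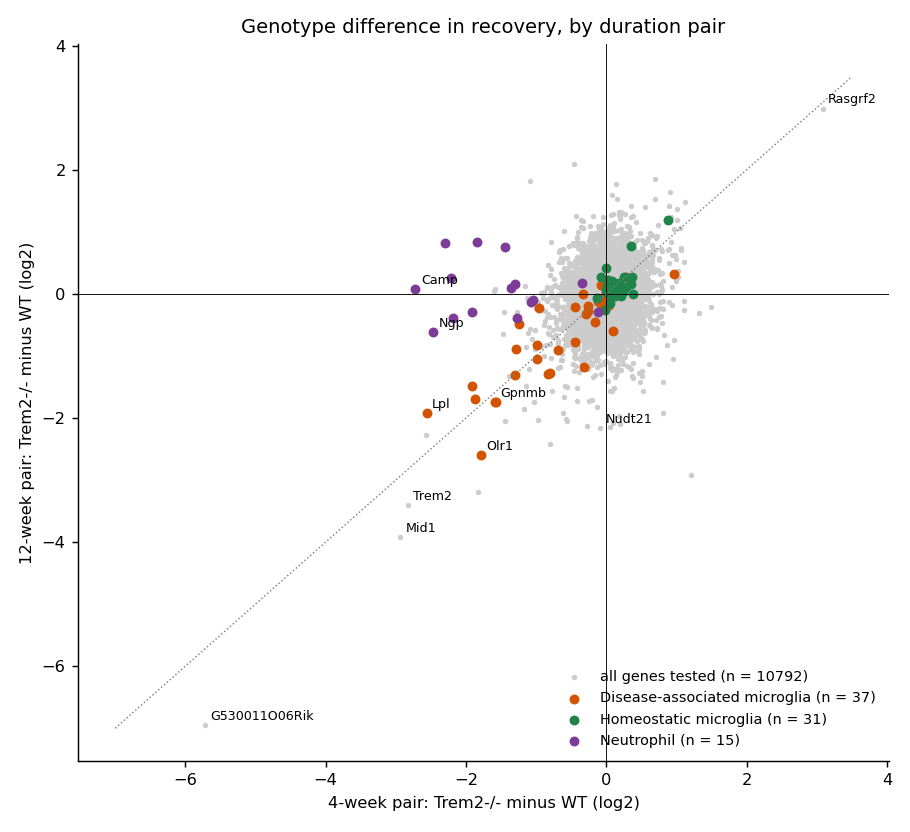
Difference Trem2-/- minus WT (log2) in the 12-week recovery pair (vertical) against the 4-week pair (horizontal), 1 grey point per gene for 10792 genes, with the disease-associated (orange), homeostatic (green) and neutrophil (purple) lists coloured and equality dotted. The lowest disease-associated genes lie near the line of equality, while 15 of 15 neutrophil genes lie left of 0 and 7 of 15 below it.

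Of the 34 genes lower by at least 1 without overlap (0.315% of all genes), 11 were among the 37 tested disease-associated microglia genes. Like the others, this list was chosen with earlier results of these data known. The list holds genes induced in microglia near amyloid plaques or where myelin is lost, and 37 of its 39 entries could be tested. In recovery 31 of the 37 had lower values in Trem2-/- cells (51.2% of all genes did), with a median difference of -0.31, against 0.00 for all genes. The median was -0.31 in the 4-week and -0.33 in the 12-week pair. In 21 of 37 both Trem2-/- libraries lay below both WT libraries (12.4% of all genes), in 0 above (11.3%). None passed singly, 3 passed with the block, and 14 had an unadjusted p under 0.05 and a lower value (1.08% of all genes). In sorted bulk RNA, fewer cells in a state and less RNA per cell cannot be told apart. Without the 4-week WT library, the one with the most neutrophil signal, the list median was -0.39.

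Members of the list that handle lipids ranged widely. Lpl, the lipase that frees fatty acids from lipoproteins, read 7.79 and 8.23 in WT and 5.23 and 6.30 in Trem2-/- recovery libraries. No Trem2-/- library reached the WT range, and the difference was -2.24 ± 0.36 (adjusted p = 0.295, and 0.048 with the duration block). Olr1, a scavenger receptor for oxidised lipoprotein, read 5.39 and 6.43 against 3.60 and 3.83. Its Trem2-/- values were below the table median and near the 3.78 of their own control, and it measured -2.19 ± 0.36 (adjusted p = 0.295, and 0.0025 with the block). The apolipoprotein Apoc1 read 7.43 and 7.94 in WT against 5.55 and 6.25 (-1.78 ± 0.39, adjusted p = 0.97). Its Trem2-/- values were nonetheless above the 4.24 of their control. The fatty acid carrier Fabp5 (-1.04 ± 0.26) and Apoc4 (-0.74 ± 0.23) did not pass.

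Gpnmb, a glycoprotein of phagocytes loaded with lipid, read 6.83 and 6.64 in WT against 5.24 and 4.90 in Trem2-/- libraries. The WT values were well above their control of 3.82 and the Trem2-/- values just above theirs of 4.64. The difference of -1.67 ± 0.25 had an adjusted p of 0.196, and 0.0065 with the block. It was of near equal size in the pairs, at -1.59 and -1.75.

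Surface receptors and proteases followed. Itgax, the integrin CD11c, read 6.38 and 6.78 in WT and 4.81 and 5.04 in Trem2-/- libraries (-1.65 ± 0.27, adjusted p = 0.295), the latter below the table median. Axl, a receptor for apoptotic cells, read 7.23 and 7.65 against 5.93 and 6.34, with -1.30 and -1.31 in the pairs. The β-glucan receptor Clec7a read 7.87 and 8.35 against 6.58 and 7.46. Groups did not overlap for these 3 genes, and none passed. The macrophage elastase Mmp12 read 7.25 and 8.10 against 5.34 and 6.61 (-1.70 ± 0.41), and galectin-3, Lgals3, 7.73 and 8.16 against 6.74 and 7.11 (-1.02 ± 0.26). Cd52, a small surface glycoprotein, measured -1.06 ± 0.22 and the secretory kinase Fam20c -0.91 ± 0.22. None of these 4 passed, with or without the block. Growth factors were lower in value by less: Igf1, which supports oligodendrocytes, read 7.35 and 7.65 against 6.66 and 6.73 (-0.80 ± 0.38), and Csf1, the survival factor of microglia, -0.61 ± 0.28.

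Other members of the list had smaller differences or overlapping groups in recovery. As for the genes above, their differences had been larger on the diet: that of Apoc1 went from -4.75 to -1.78 and that of Clec7a from -3.34 to -1.09. Cst7, which encodes the protease inhibitor cystatin F, read 8.71 and 8.31 in WT and 8.38 and 8.30 in Trem2-/- libraries. The groups overlapped, and the difference was -0.17 ± 0.42, after -3.24 ± 0.42 on cuprizone. Apoe, the main lipid carrier of the brain, read 12.57 and 12.73 against 12.28 and 12.40 (-0.31 ± 0.24, after -1.50 on cuprizone). The inhibitory receptor Lilrb4a (-0.11, after -1.58), the lipid droplet protein Plin2 (0.03, after -1.15) and the heparanase Hpse (0.64, after -1.49) had groups that overlapped in recovery. Without the 4-week WT library, which read 3.85 for Hpse against 5.36 in the 12-week one, Hpse measured -0.11. Tyrobp, the adaptor through which TREM2 signals, was level at -0.05 ± 0.18.

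**Figure D3:**
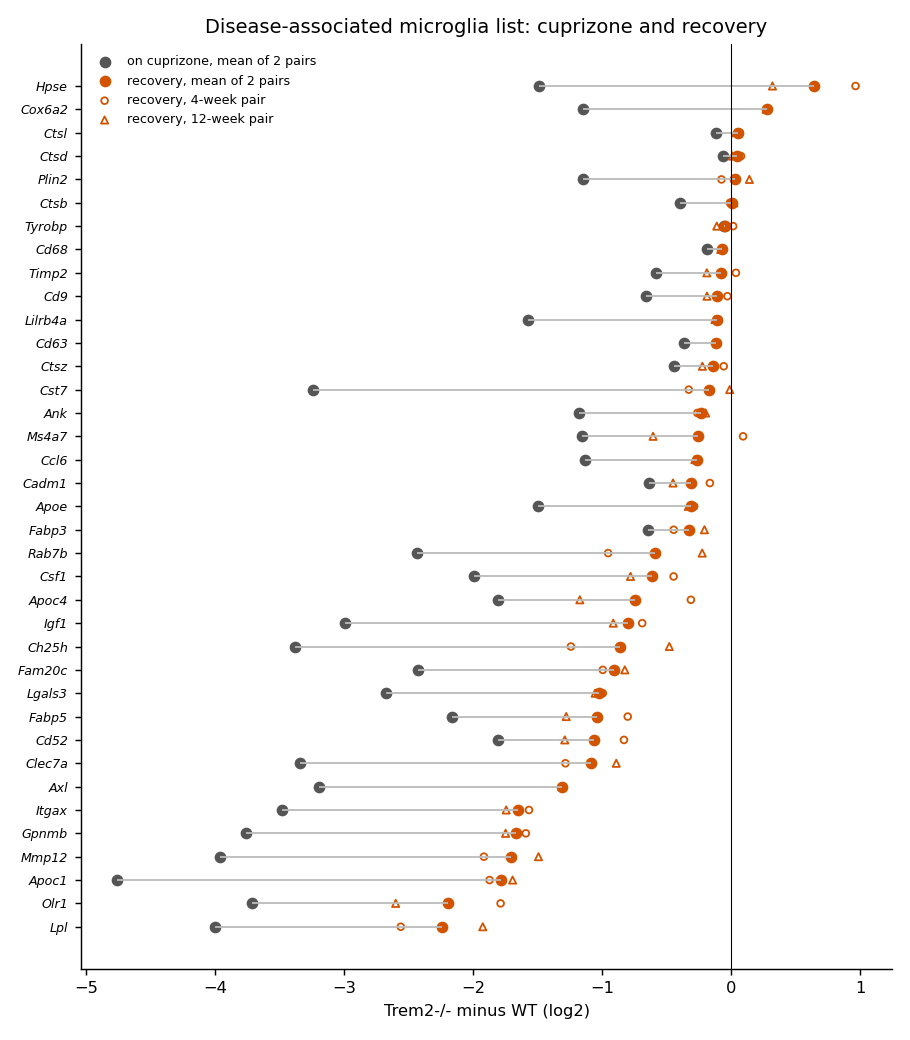
Difference Trem2-/- minus WT (log2, horizontal) of the 37 tested disease-associated genes, sorted by the recovery value, with the mean of the 2 cuprizone pairs in grey, the mean of the 2 recovery pairs in filled orange and the single recovery pairs as open circles (4 weeks) and triangles (12 weeks). Every orange point lies to the right of its grey point, with recovery values from -2.24 for Lpl to 0.64 for Hpse.

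The genotype values of this list lay closer together in recovery than on the diet. On cuprizone all 37 members had lower values (49.8% of all genes), the median was -1.58, 32 did not overlap (15.4%) and 17 passed (0.324% of all genes, lower). That count rested on the Trem2-/- library titled 12 weeks, whose time label says 4: over all genes 36 passed with it (0.334%) and 0 without it. Of the 26 with a cuprizone difference of -1 or below (1.31% of all genes), 11 were still at or below -1 in recovery (0.371%), 6 were between -1 and -0.5 and 9 were above -0.5. The difference in recovery minus that on cuprizone was above 0 for 37 of 37 (49.6% of all genes), with a median of 1.19. As a test of each gene, 26 of 37 had an unadjusted p under 0.05 (1.24% of all genes, above 0), but 0 of 10792 genes passed after adjustment, with 161 unadjusted (1.49%). With the duration block none passed either, the smallest adjusted p being 0.056, for Gpnmb (2.09 ± 0.35 without the block) and Cst7 (3.07 ± 0.60 without it). Among the 6 genes with the smallest unadjusted p were the list member Rab7b, a lysosomal trafficking gene (1.84 ± 0.35), and, off the list, Mamdc2 (1.80 ± 0.29) and the mitochondrial transcription factor Tfb2m (1.45 ± 0.26). Tfb2m read 5.88 and 6.20 in WT against 6.41 and 6.36 in Trem2-/- recovery libraries, but 7.37 against 5.82 in the controls, so its order was turned in recovery.

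The level of the list differed from that on the diet in both genotypes. In WT cells 36 of the 37 genes were below their cuprizone level in recovery (50.3% of all genes), with a median of -0.84. No gene passed limma's test (295 unadjusted, 2.73%). With the block 7 passed (0.0649%), and 0 when the Trem2-/- library titled 12 weeks was counted as 4 weeks, as its time label has it. Of the 7, 5 are on this list, here with ± from the fit without the block: Gpnmb (-1.56 ± 0.25), Itgax (-1.95 ± 0.27), Olr1 (-1.64 ± 0.36), Cst7 (-1.94 ± 0.42) and Apoc1 (-2.63 ± 0.39). WT levels had not returned to those of the WT control: 34 of 37 were above it (49.3% of all genes), by a median of 1.05. In Trem2-/- cells 30 of 37 were above their cuprizone level (48.4% of all genes), with a median of 0.32, and 31 were above their control (49.5%), by a median of 0.43. Cst7 stood at 7.76 and 6.66 on cuprizone and at 8.38 and 8.30 in recovery, Igf1 at 6.37 and 5.07 and then 6.66 and 6.73, and Apoe at 11.79 and 11.14 and then 12.28 and 12.40. No gene passed for Trem2-/- recovery against cuprizone, with 64 (0.593%) unadjusted and 0 with the block. These comparisons share libraries with the genotype comparisons above and are no separate support for them.

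Homeostatic genes, which mark resting microglia, had slightly higher values in Trem2-/- cells. Of 31 tested, 28 were higher (48.8% of all genes), with a median of 0.13 and medians of 0.10 in each pair. Groups did not overlap for 6, all higher (11.3% of all genes), and 0 passed. Nav3, a cytoskeletal protein enriched in microglia, stood out by size, with 8.62 and 8.26 in WT and 9.50 and 9.45 in Trem2-/- libraries (1.04 ± 0.23, adjusted p = 0.99). The Trem2-/- values were close to the 9.81 of their control, and the WT values below the 9.71 of theirs. Bank1, a scaffold protein, measured 0.56 ± 0.27, the tetraspanin Upk1b 0.32 ± 0.19, the lysophospholipid receptor Gpr34 0.27 ± 0.18 and the purine receptor P2ry12 0.25 ± 0.18, and in none did the groups overlap. The fractalkine receptor Cx3cr1 (12.43 and 12.22 against 12.45 and 12.23) and Tmem119 (11.40 and 10.83 against 11.55 and 10.95) differed by duration more than by genotype. The list median was -0.09 without the 4-week Trem2-/- or the 12-week WT library, each of which leaves unequal durations. On cuprizone the median was 0.28, and 29 of the 31 were above their cuprizone level in WT recovery (49.7% of all genes).

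Interferon-response genes had lower values in Trem2-/- cells on cuprizone and little difference in recovery. They are switched on by type I interferon through a transcription factor complex that holds STAT2 and IRF9 and binds repeats of GAAA in their promoters. On cuprizone 23 of 27 tested members had lower values in Trem2-/- cells (49.8% of all genes), 20 of them in both pairs (28.9%), with a median of -0.69. In recovery the median was 0.08, at 0.15 in the 4-week and -0.03 in the 12-week pair and -0.02 to 0.35 without 1 library, with 11 of 27 higher in both pairs (26.3% of all genes) and 5 lower in both (26.7%). The recovery value lay above the cuprizone value for 24 of 27 members, and 0 passed in either test. The promoter stretches of 3 members with higher means, all holding the response element (in capitals), are shown as examples of that sequence. They come from RefSeq, assembly GRCm38.p6, plus strand, 300 bases around the start of the gene, 5′ to 3′, at chr19:34583279-34583578, chr10:128270248-128270547 and chr3:142559794-142560093.
Ifit3: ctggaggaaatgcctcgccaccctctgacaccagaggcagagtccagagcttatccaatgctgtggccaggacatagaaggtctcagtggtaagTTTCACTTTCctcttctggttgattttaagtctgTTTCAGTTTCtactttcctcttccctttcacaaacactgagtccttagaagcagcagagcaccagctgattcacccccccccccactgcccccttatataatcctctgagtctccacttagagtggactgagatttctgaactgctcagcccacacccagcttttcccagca
Stat2: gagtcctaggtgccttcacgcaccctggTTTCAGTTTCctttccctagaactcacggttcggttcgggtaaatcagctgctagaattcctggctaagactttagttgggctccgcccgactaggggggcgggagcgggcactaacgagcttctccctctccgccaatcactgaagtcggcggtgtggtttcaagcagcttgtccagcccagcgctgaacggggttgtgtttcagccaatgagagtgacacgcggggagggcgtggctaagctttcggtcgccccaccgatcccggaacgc
Gbp3: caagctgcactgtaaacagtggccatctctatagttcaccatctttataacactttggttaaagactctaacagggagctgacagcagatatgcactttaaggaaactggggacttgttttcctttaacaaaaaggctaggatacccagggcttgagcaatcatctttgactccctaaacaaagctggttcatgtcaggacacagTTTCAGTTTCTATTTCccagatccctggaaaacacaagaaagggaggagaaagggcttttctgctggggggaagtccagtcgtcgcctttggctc
The motif searched, on both strands, was GAAA, any 2 bases and GAAA again, which reads as TTTC, any 2 bases and TTTC on the strand shown. Ifit3 and the stretch shown of Gbp3 hold 2 matches each, which overlap in Gbp3, and Stat2 holds 1. A second start of Gbp3 in the table, at chr3:142560106-142560405, holds 0. Of the 21 tested interferon genes with a promoter in the table, 13 held it (61.9%), against 320 of 8686 tested genes (3.68%) and 1131 of all 32851 promoter windows (3.44%). A match did not go with a higher mean in every gene: Oasl2, with a higher mean in recovery, held none, and Bst2, with a lower mean, held the motif. Matches were not counted by direction over the list. A match describes the sequence and does not show binding.

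Stat2, part of the interferon-activated complex itself, read 6.62 and 6.22 in WT and 6.99 and 7.02 in Trem2-/- recovery libraries. The groups did not overlap, and the difference was 0.58 ± 0.24 (unadjusted p = 0.039, adjusted p = 1). Oasl2, a sensor-like antiviral protein, read 5.42 and 5.44 against 5.77 and 6.38 (0.64 ± 0.28), after -0.94 on cuprizone. The guanylate-binding protein Gbp3 measured 0.52 ± 0.24 and the chaperone Rtp4 0.55 ± 0.44, again without overlap. Ifit3, an antiviral RNA-binding cofactor, read 6.52 and 7.83 in WT and 7.54 and 8.09 in Trem2-/- cells, so that its groups overlapped. The difference of 0.64 ± 0.45 rested on the 4-week WT library, without which it was -0.01. Its near-identical copy Ifit3b, a dim probe named here after its values were seen, measured 1.30 ± 0.40, and signal of the copies cannot be told apart. On the other side, Irf7, the factor that amplifies interferon responses, measured -0.50 ± 0.29, the interferon brake Usp18 -0.44 ± 0.31 and the tetherin gene Bst2 -0.36 ± 0.31, each lower mainly in the 12-week pair (-0.85, -0.81 and -0.63).

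**Figure D4:**
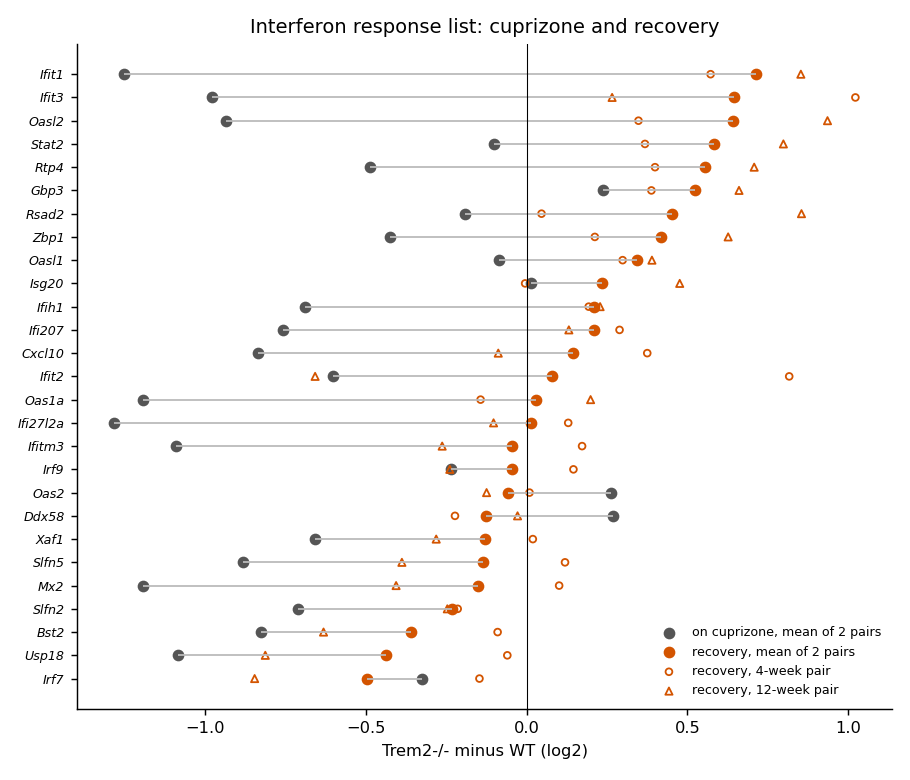
Difference Trem2-/- minus WT (log2, horizontal) of the 27 tested interferon-response genes, sorted by the recovery value, with the mean of the 2 cuprizone pairs in grey, the mean of the 2 recovery pairs in filled orange and single recovery pairs as open circles (4 weeks) and triangles (12 weeks). Recovery means range from -0.50 for Irf7 to 0.71 for Ifit1, and 23 of 27 grey points lie below 0.

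Among inflammatory mediators, the prostaglandin enzyme Ptgs2 read 8.84 and 10.11 in WT and 7.45 and 8.78 in Trem2-/- libraries. It was lower within each duration, by -1.39 and -1.33, but read higher at 12 weeks in both genotypes, so its adjusted p was 1 without and 0.016 with the block. The cytokine Il1b read 10.69 and 11.44 against 10.22 and 10.60 (-0.66 ± 0.32), and the chemokine Cxcl14 5.62 and 6.80 against 5.20 and 5.07 (-1.07 ± 0.37). Neither passed. Over the list of cytokines and chemokines, 15 of 29 had lower values, and the median was -0.14 in recovery after -0.62 on cuprizone. Outside the lists of microglial states, the chemokine receptor Cxcr4 read 8.57 and 9.37 against 7.40 and 7.51 (-1.52 ± 0.36). The NADPH oxidase subunit Cybb read 8.62 and 8.83 against 7.82 and 6.41 (-1.61 ± 0.49). Cxcr4 and Cybb were named after their values were seen. Slamf7, an adhesion receptor (-1.74 ± 0.35), the sialyltransferase St8sia6 (-1.32 ± 0.26) and the B cell co-receptor Cd72 (-1.38 ± 0.32) were of like size, without overlap of the groups, and did not pass. The matrix protein Postn (-1.27 ± 0.36) and the LIM protein Crip1 (-1.16 ± 0.42), named after their values were seen, did not pass either. Of the 34 genes lower by at least 1 without overlap, 33 were also lower in both cuprizone pairs, against 28.9% of all genes. Genes dim in all Trem2-/- libraries, such as Olr1 and Itgax, entered the test only through WT libraries, those on cuprizone among them. The filter can thus raise this share, which is no separate support.

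Higher values in Trem2-/- cells were fewer. Gramd1b, a sterol transporter between membranes, read 6.72 and 6.54 in WT and 7.72 and 7.90 in Trem2-/- libraries (1.18 ± 0.24, adjusted p = 0.81). Nnt, the mitochondrial transhydrogenase, read 6.80 and 6.55 against 7.76 and 7.59 (1.0 ± 0.20, adjusted p = 0.81). All Trem2-/- values lay above all WT values for both genes, and the control pair differed by 0.08 and 0.23. Csmd3, a large transmembrane protein, measured 1.09 ± 0.29, the focal adhesion protein Lpp 1.10 ± 0.27, the ribonuclease family gene Rnase12 1.27 ± 0.37 and Nynrin 1.08 ± 0.46, and none passed. Of the 11 genes higher by at least 1 without overlap, 8 were also higher in both cuprizone pairs, against 27% of all genes. The filter can raise this share too, since Rasgrf2 was above the table median only in Trem2-/- libraries.

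The remaining lists of microglial function had small medians, that of glycolysis being the lowest. Glycolysis genes had 13 of 17 lower (51.2% of all genes), with a median of -0.15 after -0.43 on cuprizone. The median was -0.15 in each pair and -0.17 to -0.10 without 1 library. In 6 of 17 both Trem2-/- libraries lay below both WT libraries (12.4% of all genes), in 0 above (11.3%). The list was led by the triosephosphate isomerase Tpi1 at -0.61 ± 0.21, with Pgam1 at -0.36 ± 0.22 and Pgk1 at -0.42 ± 0.25. Lysosome genes had 24 of 34 lower but a median of -0.07, with Atp6v0d2, a subunit of the proton pump, at -1.51 ± 0.41. The palindrome CACGTG, bound by the lysosomal regulators of the MiT/TFE family, was found in the promoters of 9 of 29 lysosome genes (31%), 3 of 27 disease-associated genes (11.1%) and 12% of tested genes. Phagocytic receptors (-0.09) held the activating receptor Cd300lb at -0.84 ± 0.18. Cholesterol synthesis had 11 of 19 lower at -0.11, with its master regulator Srebf2 at -0.38 ± 0.18. Cholesterol efflux and lipid handling had a median of -0.04, but its members ranged widely. It holds Lpl and Apoc1, given above, and the cholesterol hydroxylase Ch25h at -0.86 ± 0.67. In 8 of its 25 members both Trem2-/- libraries lay below both WT libraries (12.4% of all genes), in 1 above (11.3%). MHC class II genes had 7 of 10 lower (-0.14), with the peptide loader H2-DMa at -0.48 ± 0.38 and the co-stimulator Cd80 at -0.34 ± 0.17, and MHC class I -0.02, with H2-T10 at 0.68 ± 0.20. Trophic factors had -0.09, with Vegfa at -0.66 ± 0.23. Leaving out 1 recovery library moved the median of phagocytic receptors between -0.38 and 0.13, of trophic factors between -0.37 and 0.04 and of complement between -0.17 and 0.16. Medians of galectins and matrix proteases (-0.09), complement (-0.08), the Trem locus (-0.08), immediate early genes (-0.01), TREM2 signalling partners (0.03) and proliferation (0.08) were as small. Apart from Trem2 in the Trem locus, no member of these lists passed, and with the block those that passed were Gpnmb (also on the lysosome list), Lpl (lipid handling), Olr1 (phagocytic receptors) and Ptgs2 (cytokines).

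**Figure D5:**
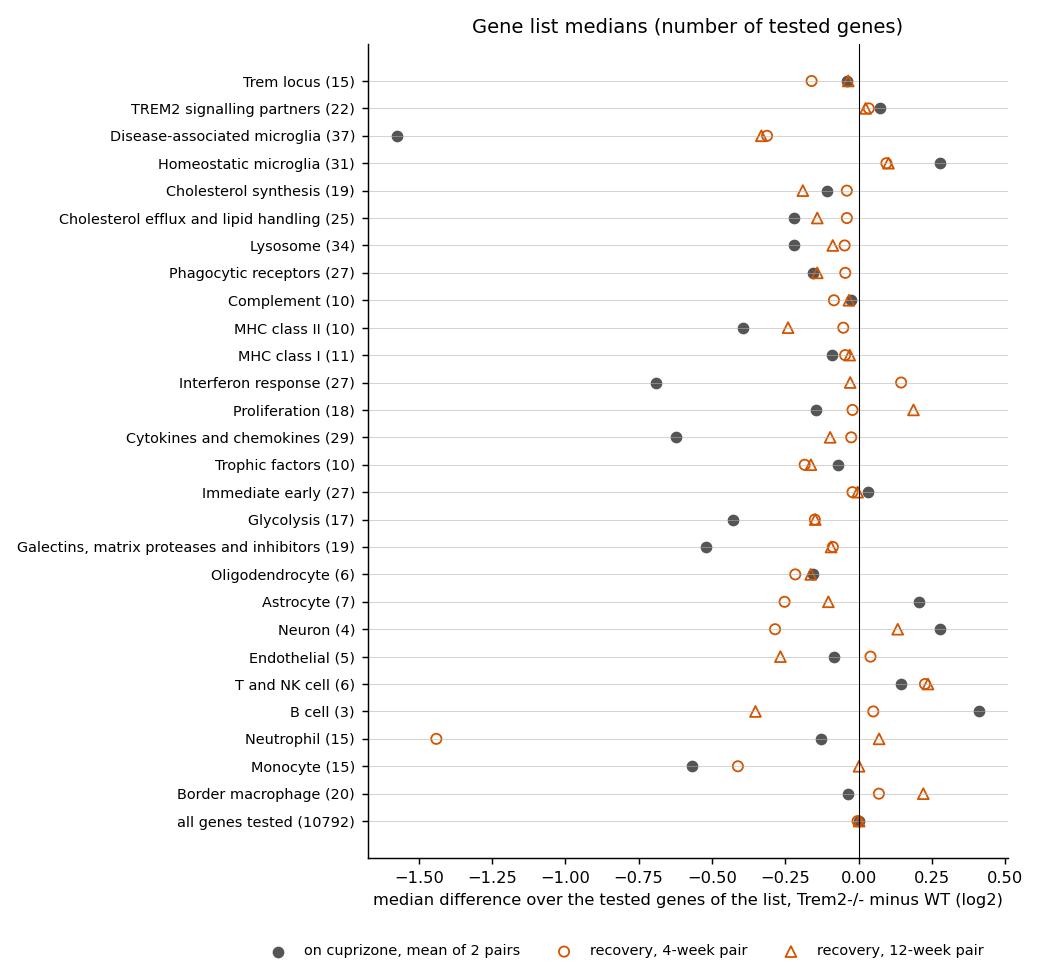
Median difference Trem2-/- minus WT (log2, horizontal) over the tested members of 27 gene lists and of all genes (number tested in brackets), on cuprizone as the mean of 2 pairs (grey) and in recovery in the 4-week (open circles) and 12-week pair (open triangles). The disease-associated list lies at -1.58 on cuprizone and at -0.31 and -0.33 in recovery, and the neutrophil list at -1.44 in the 4-week and 0.07 in the 12-week pair.

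Markers of other cells were checked beside these results. Neutrophil genes had 15 of 15 lower values in the 4-week pair (median -1.44) and 7 of 15 in the 12-week pair (0.07). Mpo, the myeloperoxidase, read 7.05 in the 4-week WT library and 4.84, 4.44 and 4.69 in the other recovery libraries. Monocyte genes had medians of -0.41 and 0.00 in the pairs, with summed intensities of 1809 and 1299 in WT and 1188 and 1107 in Trem2-/- libraries. The hyaluronan receptor Cd44 (-0.90 ± 0.24), Ms4a4c (-1.14 ± 0.39), Vim (-0.87 ± 0.38) and Fn1 (-0.83 ± 0.52) had lower values in this list, of which 10 of 15 were lower in the mean and 7 of 15 in the 12-week pair. The calcium-binding S100a4 (0.35 and 1.24 in the pairs) and S100a6 (-0.46 and 2.08) and the chemokine receptor Ccr2 (0.31 and 0.85) had higher means, S100a4 and Ccr2 being named after their values were seen. Ms4a6c (-1.30 ± 0.50) and Mcemp1 (-1.17 ± 0.38) were lower in value without overlap, but did not pass. They are on no list and were named after their values were seen. Border macrophage genes, of the meninges and vessels, had 16 of 20 higher values (median 0.16, and from -0.31 to 0.67 without 1 library). Their sums were 8808 and 4459 in WT and 9310 and 5219 in Trem2-/- cells, so they too differed by duration, and Clec10a measured 1.05 and 1.06 in the pairs while the scavenger receptor Colec12 had -0.47 and -1.13. Oligodendrocyte markers, of which 6 were bright enough to test, were lower in 6 of 6 (median -0.21), and their sums were 3045 and 2532 in WT against 2724 and 2125. Astrocyte (-0.17), neuron (-0.05), endothelial (-0.13), B cell (-0.10, 3 genes) and oligodendrocyte precursor genes (-0.23, 2 genes) had no called member, and 5 of 5 erythroid genes were below the table median. T and NK cell genes had 5 of 6 higher (0.17), with the NK receptor Klrd1 at 0.81 ± 0.53 and the interleukin-7 receptor Il7r at 0.56 ± 0.28. The endothelial markers Flt1 and Pecam1 differed in opposite directions without overlap, at -0.94 ± 0.23 and 0.66 ± 0.20. The part of these cells in the differences above was not tested.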

How the data were processed

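Microglial RNA of 10 libraries had been measured on single-channel arrays, 1 array per library. The deposited values are linear intensities on a common scale, with array medians of 37.6 to 39.3; how the authors summarised, background-corrected and normalised them is not stated in the labels or header. Of 24567 probes, 21259 name 1 gene, 1274 several and 2034 none in the platform annotation. Genes known only from probes of several names were left out. Log2 was taken here, the brightest probe was kept per gene, and 10792 genes were tested that were above the table's median intensity of 38.5 on at least 2 arrays. limma 3.58.1 in R 4.3.3 fitted 6 group means on all 10 arrays, and genes with an adjusted p under 0.05 were called. The procedure was also run on simulated data in which libraries varied independently and feeding time had no effect. That run does not check how the likeness of same-duration libraries affects the tests.

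Named genes were Trem2, the called genes, up to 15 in each direction by unadjusted p among genes past 1 without overlap, up to 4 members of each list by p and 2 by the gap between pairs, and the 6 genes with the largest gap between pairs or the smallest interaction p. Others are said to be chosen after their values were seen, which also holds for Cx3cr1, Tmem119 and members set beside the leading ones. The members and 29 gene lists were chosen with earlier results of these data known. Libraries were paired by titled feeding time: deviations of same-duration recovery libraries from their group means correlated at 0.62 over 10792 genes. With 2 libraries per group this figure is the same for both pairs. Alternatives covered the arrays fitted, the block, scaling, filter, probe summary, an offset, the variance prior and leaving out each cuprizone or recovery library. One cuprizone library, titled 12 weeks, carries a time label of 4 weeks, and was used by its title.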

Additional observations from a re-analysis of the deposited data

Results flagged for a closer look

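For 7 named genes, both cuprizone pairs had lower values in Trem2-/- cells and both recovery pairs higher ones. The difference in recovery minus that on cuprizone was 2.17 for Ifit3b, 2.13 for Hpse, 1.96 for Ifit1, 1.62 for Ifit3, 1.58 for Oasl2, 1.45 for Tfb2m and 1.04 for Rtp4. None of the 7 passed limma's test of this change (adjusted p = 1 for each), so the turn in sign is a description. Of these genes, Ifit1, Ifit3, Oasl2 and Rtp4 are on the interferon list, and Ifit3b is a near-identical copy of Ifit3.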

How the results depend on the processing

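Of 3 genes called in recovery, 1 was called on the 4 recovery arrays alone, 10 with duration as replicate block and 8 when the doubtfully labelled Trem2-/- cuprizone library was counted as 4 weeks in that block. Leaving out 1 library gave 0 to 4. On cuprizone 36 became 153 and 55 with these blocks and 0 to 42 without 1 library (11 and 17 without the 4- or 12-week WT and 16 and 0 without the 4- or 12-week Trem2-/- cuprizone library), and for WT recovery against cuprizone 0 became 7 with the block. Counts for the interaction and for Trem2-/- recovery against cuprizone were 0 under every alternative run. Differences of 18 of 98 named genes turned sign under at least 1 alternative. With quantile normalization Tyrobp was 0.025. Without the 4-week WT recovery library, Cst7 was 0.030, Plin2 -0.12, Hpse -0.11, Ifit3 -0.0095, Ifit1 -0.055, Camp 1.18 and Mpo 0.33. Without the 12-week WT one, Lilrb4a was 0.17, I730030J21Rik 0.17, Mrps10 0.55, Tnfsf9 0.84, Cx3cr1 -0.086, Tmem119 -0.16, S100a6 -1.08 and S100a4 -0.11. Without the 4-week Trem2-/- one, Ch25h was 0.19, Lilrb4a 0.16, Cx3cr1 -0.089 and Tmem119 -0.17. Without the 12-week Trem2-/- one, Plin2 was -0.23, Tyrobp 0.062, Ifit1 -0.20, Snord82 0.58 and Mrps10 0.35. Such fits set unequal durations against each other, and the cause was not tested otherwise. List medians crossed 0 for 18 of 28 lists when 1 library was left out. The median of all genes moved by under 0.1 with scaling. Signals near the table median limit the dim genes. Under the stricter filter no oligodendrocyte precursor or neuron gene was left, so those medians have no value there.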
